A study of Mus musculus with 15 samples.

Results

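The 10 genes described here are immediate early genes, whose transcripts rise within minutes of a stimulus and fall again soon after. They are the transcription factor genes Fos, Fosb, Junb, Egr1, Egr3, Egr4 and Nr4a1 and the effector genes Arc, Ier2 and Btg2, 10 of the 15932 genes in the deposited table. They were followed over the 7 cell classes that the authors deposited and over 3 treatments in the same 15 mice. Single-cell RNA sequencing (10x Genomics droplets, 3' kit version 2) had been run on the striatum of male C57BL/6J mice, an inbred strain, bought at 8 weeks and given about 1 week to settle. Of these mice, 5 received placebo, 5 received haloperidol from an implanted pellet and 5 received olanzapine in food, for 28 to 29 days. Haloperidol blocks dopamine receptors, and olanzapine blocks serotonin and dopamine receptors. The route differed with the drug, and the labels do not give the route of the placebo, so drug and route cannot be told apart. All mice shared the strain, the sex, perfusion, slicing, trituration of the tissue and removal of dead cells, and 1 library was made from each mouse.

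The members were chosen by measured values of this table, chiefly those of olanzapine against placebo and of haloperidol against olanzapine in neurons and in the class other. Those values are given below as a description, and nothing is read from tests of them. Haloperidol against placebo in these same classes is the sum of the 2 comparisons named, and it is treated the same way.

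Immediate early genes are switched on by calcium and growth factor signals through factors that wait in the cell, such as CREB and SRF, and need no new protein for it. Fos, FosB and JunB combine into AP-1, the EGR proteins are zinc finger factors and Nr4a1 is an orphan nuclear receptor. In the striatum they are widely used as marks of recent neuronal activity, and glial and vascular cells also induce several of them, including while tissue is being dissociated.

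CREB binds the cyclic AMP response element, whose core TGACG was 1 of 3 motifs searched. It is shown because each member promoter at hand holds it, so that count is a description and no finding. RefSeq promoters (build GRCm38.p6, mouse) matched 6 of the 10 members, Fos, Fosb, Junb, Egr4, Nr4a1 and Btg2, and did not match Egr1, Egr3, Arc and Ier2. Each line gives 55 bases 5' to 3' on the gene's strand, with 1 such core in capitals, read as TGACG or, on the other strand, as CGTCA.

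Fos (chr12:85473799-85473853, + strand): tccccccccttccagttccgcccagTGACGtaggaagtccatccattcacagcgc

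Fosb (chr7:19310076-19310130, - strand): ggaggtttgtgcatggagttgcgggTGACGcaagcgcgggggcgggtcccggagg

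Junb (chr8:84978825-84978879, - strand): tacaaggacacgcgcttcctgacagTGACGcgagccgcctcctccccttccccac

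Egr4 (chr6:85513669-85513723, - strand): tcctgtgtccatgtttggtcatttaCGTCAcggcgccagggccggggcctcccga

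Nr4a1 (chr15:101266781-101266835, + strand): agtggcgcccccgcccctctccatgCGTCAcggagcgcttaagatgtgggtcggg

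Btg2 (chr1:134079292-134079346, - strand): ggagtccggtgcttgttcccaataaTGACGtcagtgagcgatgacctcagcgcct

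The capitals begin 40 bases before RefSeq's start of the gene in Nr4a1 and 166 bases before it in Btg2, with the other promoters between them. Within 250 bases upstream, TGACG on either strand was found in 6 of 6 member promoters and in 17.8% of 32851 mouse promoters of that length. The full palindrome TGACGTCA, which contains the core on both strands, was found in Btg2 alone (1.55% of all promoters), and the CArG box, the motif of SRF, in 0 of 6 (1.47% of all promoters). A match describes these letters and does not show binding. Bases further upstream were not searched, so 0 matches in this window do not show that a gene lacks a site. RefSeq's starts of Btg2, Fosb, Junb and Nr4a1 differ from the ends of the gene models given below.

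Expression was counted in unique molecular identifiers (UMIs, each standing for a captured transcript), and 5317 cells with 18223996 UMIs were analysed, 78 to 1178 cells per mouse. Olanzapine 3 gave 1178 cells although the labels state that 500 were loaded per well, and the 4 mice with the fewest cells were olanzapine 1 and 2 and haloperidol 1 and 2. Placebo 5 shared 110 cell barcodes with placebo 3 and 101 with placebo 2, always with fewer UMIs (medians of 1253 against 4180 and 1611 against 4995), whereas any other of the 105 pairs of libraries shared at most 2. These 211 cells of placebo 5 were left out, and no member's call changed when they were kept. The mitochondrial share was 2.54% ± 0.364 with placebo, 2.88% ± 0.468 with olanzapine and 3.17% ± 0.836 with haloperidol (mean of mouse medians ± SD, n = 5 each). Marker genes went against 2 class names: the class labelled olig precursor was highest for 6 of 6 markers of myelinating oligodendrocytes, and the class labelled oligodendrocyte for 6 of 6 precursor markers. The class other was highest for all endothelial (7), mural (8) and fibroblast (4) markers, so it is vascular, and the remaining classes were highest for their own markers.

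Levels are CPM, the UMIs of a gene summed over a mouse's cells of a class and scaled to the class's total (with TMM factors), given as mean ± SD over mice with at least 10 cells of that class. In such a sum, more cells with a transcript and more transcripts per cell cannot be told apart. Of the 10 members, 3 were highest in microglia, 3 in the class labelled oligodendrocyte, 3 in neurons and 1 in the class other. Of 60 steps between neighbouring classes in the order of means, 44 were within 1 SD and 16 were larger. The classes were made from the same cells, and these levels are a description.

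Among the AP-1 genes, Fos (chromosome 12, 85473890 to 85477273; coordinates here are GRCm38) lay at 3136 ± 964 CPM in the class labelled oligodendrocyte (n = 11 mice) and at 3052 ± 1195 CPM in microglia (n = 13), a difference within the SD. Its lowest, median and highest mouse were 1369, 2852 and 5845 CPM in microglia and 18.4, 36.0 and 130.1 CPM in neurons (n = 15). Every mouse thus had far more Fos by CPM in microglia than any mouse had in neurons, where the mean, 43.9 ± 29.9 CPM, was the lowest of the 7 classes. The class other (1332 ± 537 CPM, n = 13) stood below microglia and above neuroblasts (363 ± 279.7 CPM, n = 14) by more than the SD.

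Fosb (chromosome 7, 19302696 to 19310051) reached 899 ± 286 CPM in the class labelled oligodendrocyte and was higher there than in microglia (266 ± 128 CPM) in 10 of the 10 mice with both classes. Neurons held 31.6 ± 58.8 CPM, with 0, 14.7 and 239 CPM as the lowest, median and highest mouse, and the highest mouse, olanzapine 1, stood far above the next (41.4 CPM). Junb (chromosome 8, 84974484 to 84978718) was highest in microglia, at 3327 ± 680.1 CPM, followed by the class other (1969 ± 601 CPM), the class labelled oligodendrocyte (952 ± 344 CPM) and neurons (323 ± 130.2 CPM). Each of these 3 steps was larger than the SD and was seen in every mouse with both classes (12 of 12, 10 of 10 and 11 of 11).

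The EGR genes split. Egr1, on chromosome 18, followed the AP-1 genes, with 854 ± 128 CPM in microglia and 780.4 ± 301 CPM in the class labelled oligodendrocyte against 169 ± 93.7 CPM in neurons. Egr3 (chromosome 14, 70077203 to 70082614) was instead highest in neurons, at 41.8 ± 19.5 CPM, and the next class, other, was at 9.16 ± 20.2 CPM. Neurons exceeded the class other for Egr3 in 11 of 13 mice, and the lowest, median and highest neuron values were 5.42, 41.5 and 73.6 CPM. Egr4 (chromosome 6, 85511121 to 85513589) was also highest in neurons (145 ± 150.5 CPM), above neuroblasts (21.7 ± 41.1 CPM) in 13 of 14 mice, although its SD over mice was as large as its mean.

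Nr4a1 (chromosome 15, 101254269 to 101274795) was spread differently, with 128 ± 61.8 CPM in the class labelled oligodendrocyte, 127 ± 127 CPM in the class other and 59.4 ± 69.2 CPM in neurons, none of these steps exceeding the SD. In microglia, where Fos, Junb and Egr1 were high, Nr4a1 was at 14.9 ± 10.4 CPM. Its 13 microglia values ran from 0 to 33.5 CPM.

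Arc (chromosome 15, 74669083 to 74672570), which encodes a capsid-like protein that trims glutamate receptors at synapses, was at 50.1 ± 24.1 CPM in neurons and at 38.1 ± 34.3 CPM in the class labelled olig precursor, a difference within the SD. The remaining 5 classes had means of 0.869 to 3.51 CPM. The 9 mice of the class labelled olig precursor had 0, 33.7 and 106 CPM as lowest, median and highest value, so the spread there was wide. Egr3 was at 0 in all 9 of these mice, and the summed level of 6 neuron markers there was 85.4, 460.5 and 64.7 CPM with placebo, haloperidol and olanzapine, against 21752 to 24872 CPM in neurons. The Arc values in these myelin-marked cells rest on 41 UMIs, and 2 of the 9 mice had 0. The part of the neuron markers in these Arc values was not tested.

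Ier2 (chromosome 8, 84661331 to 84662852), a small nuclear regulator, was highest in the class other (753 ± 279 CPM) and lowest in neurons (8.06 ± 10.1 CPM). Astrocytes held little of it as well (20.8 ± 20.7 CPM), and neuroblasts exceeded them in 14 of 14 mice (243 ± 85.0 CPM). Btg2 (chromosome 1, 134075170 to 134079120), an antiproliferative partner of the deadenylase complex, was at 1615 ± 342 CPM in microglia and 803 ± 383 CPM in the class other, and both steps down from these exceeded the SD, in 12 of 12 and 13 of 13 mice.

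**Figure D1:**
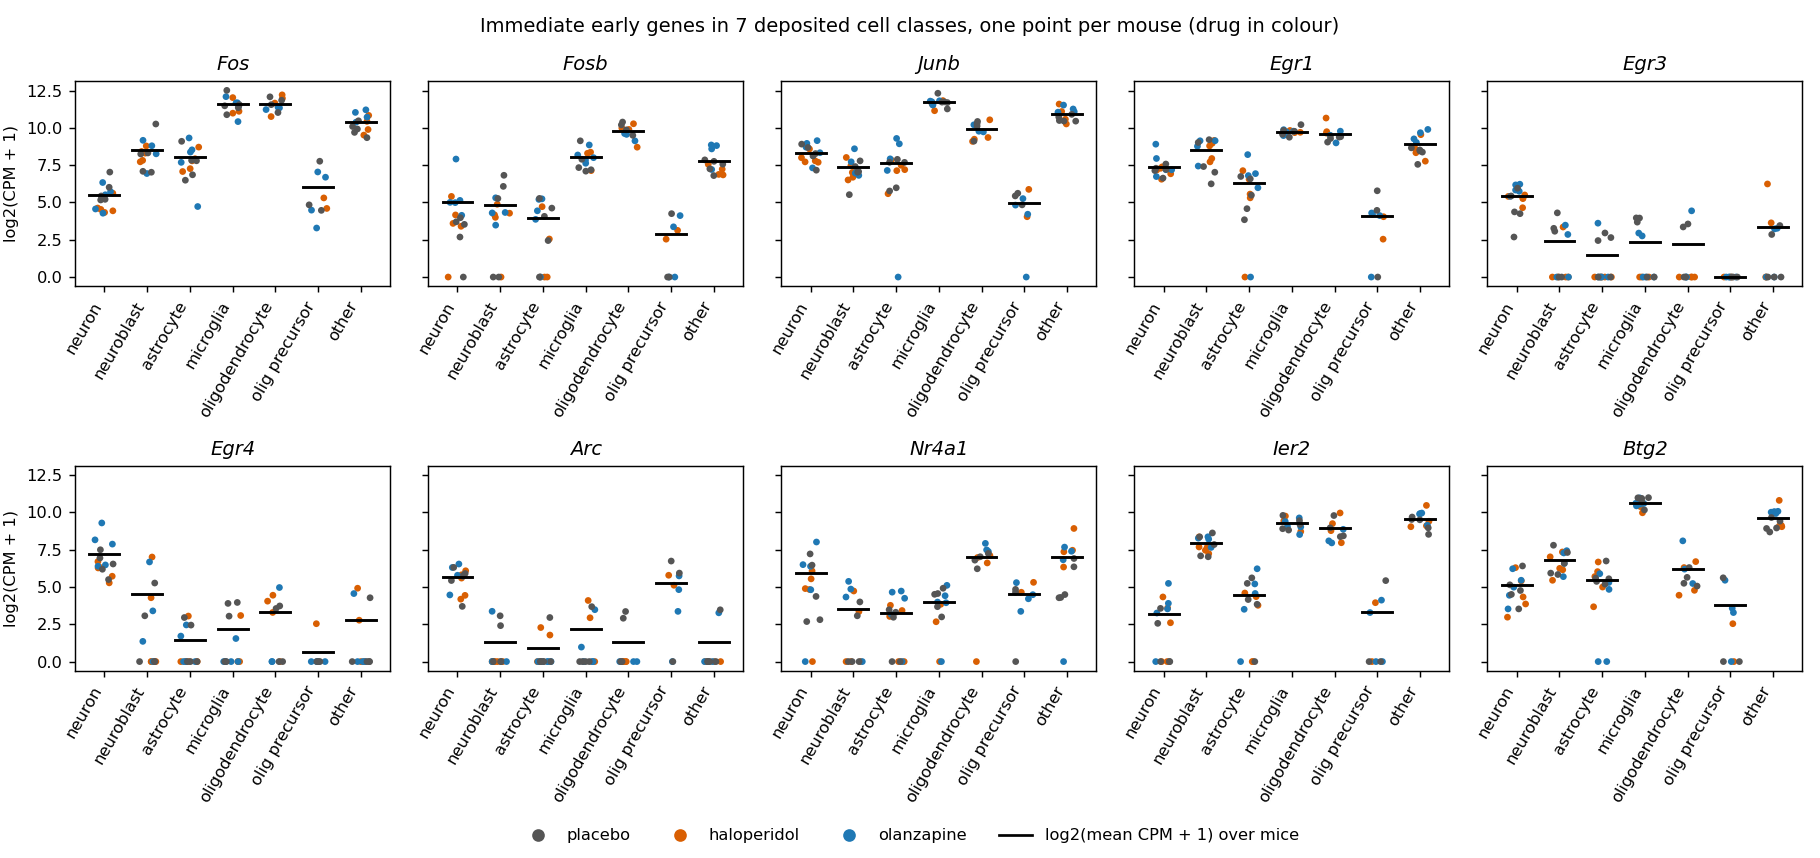
Level of each member, as log2(CPM + 1) on the vertical axis, in the 7 deposited classes; each point is 1 mouse coloured by treatment and the bar is the log2 of the mean CPM + 1. Fos in microglia lies between 1369 and 5845 CPM, whereas Egr3, Egr4 and Arc have their highest mean in neurons.

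Counts in single cells were thinned to 1000 UMIs per cell so that depth did not set the shares, which left out 289 shallower cells (4 to 104 per class). A UMI of Fos was found in 67.9% (560 of 825 cells; 95% exact interval 64.6 to 71.1%; 79.4% unthinned) of microglia and in 2.82% (25 of 888 cells; 95% exact interval 1.83 to 4.13%; 9.91% unthinned) of neurons. Intervals here cover counting error only, and free RNA in droplets can give a UMI to a cell that does not express the gene. For Arc the share was 3.94% (35 of 888 cells; 95% exact interval 2.76 to 5.44%; 9.70% unthinned) in neurons and 3.54% (12 of 339 cells; 95% exact interval 1.84 to 6.10%; 12.0% unthinned) in the class labelled olig precursor, and it was 0 of 1469 in astrocytes (0.254% unthinned), which, at 3 counts of the total, allows a share of cells with a thinned UMI of up to 0.204%. Egr4 was seen in 7.66% (68 of 888 cells; 95% exact interval 6.00 to 9.61%; 18.2% unthinned) of neurons and in 0 of 455 cells of the class other (0.774% unthinned; up to 0.659% by the same 3 counts). Ier2 was seen in 3 of 888 neurons (0.338%; 2.37% unthinned). Median depth before thinning was 3402 UMIs in neurons, 3580 in microglia, 2279 in astrocytes, 3351 in the class labelled olig precursor and 2236 in the class other.

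Cells also differed in how many members they held at once. After thinning, 3 or more of the 10 members had a UMI in 69.7% of microglia (575 of 825), 42.6% of the class labelled oligodendrocyte (168 of 394) and 41.1% of the class other (187 of 455). In neurons this was 3.83% (34 of 888), in astrocytes 2.79% (41 of 1469) and in the class labelled olig precursor 0.295% (1 of 339). No member was seen in 10.1% of microglia but in 63.0% of neurons and 72.8% of astrocytes.

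Within neurons most UMIs of Egr4 and Junb lay in few cells, and many pairs of members, though not all, tended to be found together. The 10% of neurons with the most Egr4 held 83.1% of its 451 UMIs, and a single cell held 70 of them. For Junb, 64.3% of 1035 UMIs lay in the top 10% of neurons, against 28.9% of 8759 UMIs in microglia. These shares are from counts before thinning, over 928 neurons and 846 microglia. Junb had a UMI in 39.7% of those neurons and in 88.4% of those microglia. A gene seen in fewer than 10% of cells has a share of 100% by construction, as Fos did in neurons (9.91% of cells). The part of depth and low counts in these shares was not tested. Of neurons with a thinned UMI of Egr4, 44.1% (30 of 68) also had Junb and 23.5% (16 of 68) had Egr1, against 16.3% (134 of 820) and 9.88% (81 of 820) of neurons without Egr4. Other pairs did not share this. Fosb was seen in 0 of 25 neurons with Fos and 2.32% (20 of 863) of those without it, and Egr3 in 4% (1 of 25) and 3.94% (34 of 863). In astrocytes, Junb was seen in 33.8% (70 of 207) of cells with Fos and 8.08% (102 of 1262) of cells without it, and in microglia in 88.6% (496 of 560) and 59.2% (157 of 265). Cells of a mouse share a library, so these shares describe cells and are not a test over mice.

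Striatal projection neurons divide into direct-pathway cells with dopamine receptor 1 and indirect-pathway cells with dopamine receptor 2, the main target of haloperidol. Neurons were typed by the UMIs of Drd1, Tac1 and Pdyn against Drd2, Penk, Adora2a and Gpr6 (at least 2 UMIs and 4 times those of the other type), and 53 neurons lay within 1 UMI of that limit. In the 11 mice with at least 10 cells of both types, Nr4a1 was at 25.1 ± 34.1 CPM in direct-typed and 80.8 ± 90.4 CPM in indirect-typed neurons, and it was higher in the indirect type in 8 mice and in the direct type in 1. Egr4 was at 101 ± 70.1 against 165 ± 162 CPM and Egr3 at 32.3 ± 25.7 against 56.7 ± 45.9 CPM, both higher in the indirect type in 7 of 11 mice. Arc and Fos leaned the other way, each higher in the direct type in 8 of 11 mice, at 52.8 ± 31.3 against 39.9 ± 26.04 CPM for Arc. The mean differences of these 5 genes were all smaller than the larger SD over mice. The values rest on 36 to 215 UMIs of each of these genes per type.

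**Figure D2:**
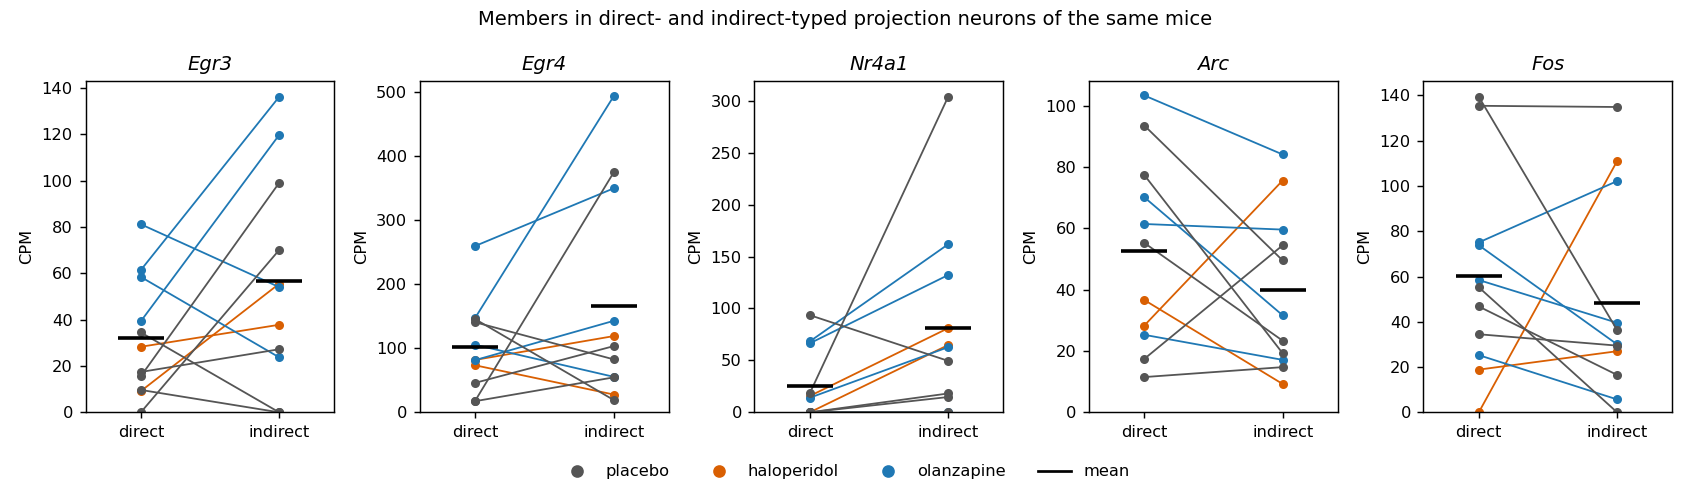
CPM of 5 members (vertical axis, each with its own scale) in direct- and indirect-typed neurons of the same 11 mice, joined by a line per mouse and coloured by treatment; the bar is the mean. The lines of Nr4a1 rise in 8 of 11 mice, and those of Arc and Fos fall in 8 of 11.

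The vascular class other was split in the same way into endothelial-typed cells, which line the vessels, and mural-typed cells, the pericytes and smooth muscle around them, with 5 cells near the limit. In the 9 mice with both, Fos was at 2837 ± 1244 CPM in mural-typed and 690.1 ± 312 CPM in endothelial-typed cells. Egr1 was at 981 ± 339 against 151 ± 118 CPM and Junb at 3375 ± 1035 against 1435 ± 451 CPM. Fos, Fosb, Junb and Egr1 were higher in the mural type in 9 of 9 mice and Btg2 in 8 of 9. Ier2 did not share this, at 683 ± 376 CPM in mural-typed and 986 ± 286 CPM in endothelial-typed cells, higher in the mural type in 4 mice and in the endothelial type in 5.

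Turning to treatment, values in neurons come first. Egr4 was at 44.2, 72.0, 179, 92.1 and 122 CPM in placebo mice 1 to 5, 76.5, 51.7, 103, 37.8 and 77.6 CPM in haloperidol mice 1 to 5 and 626, 88.2, 234, 285 and 83.0 CPM in olanzapine mice 1 to 5. Olanzapine 1, 3 and 4 stood above every other mouse, olanzapine 2 and 5 lay among the rest, and the groups overlapped. The group means were 102 ± 51.8, 69.4 ± 25.4 and 263 ± 221 CPM (n = 5 each), and the log2 difference was 1.24 ± 0.53 (SE) for olanzapine minus placebo, -1.64 ± 0.53 for haloperidol minus olanzapine and -0.40 ± 0.59 for haloperidol minus placebo. The highest value, 626 CPM in olanzapine 1, rests on 34 UMIs. A single neuron held 70 of the 451 Egr4 UMIs of all neurons, and only olanzapine 3 and 4 had enough of them to include it. The values were not computed without that cell. Olanzapine 1 was also the highest of the 15 mice for Egr1 (479 CPM), Fosb (239 CPM) and Nr4a1 (258 CPM) in neurons.

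Egr3 was at 19.6, 18.0, 42.2, 5.42 and 61.1 CPM with placebo, 38.3, 41.4, 37.2, 24.04 and 44.3 CPM with haloperidol and 73.6, 41.5, 71.2, 55.9 and 52.8 CPM with olanzapine, in the same order of mice. Placebo 3 and 5 lay within the olanzapine range and placebo 1, 2 and 4 below it. The log2 difference was 1.14 ± 0.43 for olanzapine minus placebo. Junb, Egr1, Arc and Nr4a1 differed by 0.27, 0.41, 0.10 and 0.63 in that comparison, with SEs of 0.30 to 0.95. All 6 members that passed the filter on low counts in neurons were thus above 0 for olanzapine minus placebo, where 50.7% of all 4525 genes tested in neurons were, and all 6 were below 0 for haloperidol minus olanzapine, where 50.5% of the genes were above it. These comparisons share their olanzapine mice and helped choose the members, and nothing is read from those counts. Fos, Fosb, Ier2 and Btg2 did not pass that filter in neurons. Fos spanned 34.9 to 130.1 CPM with placebo, 19.1 to 48.1 CPM with haloperidol and 18.4 to 79.8 CPM with olanzapine. Fosb spanned 0 to 14.7, 0 to 41.4 and 16.6 to 239 CPM in that order, and the ranges of Ier2 and Btg2 overlapped.

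Markers of other cells in neurons are given beside these values. Olanzapine 3, high for Egr4 and Egr3, had 3 blood markers at a summed 24349.6 CPM and 6 microglial markers at 408 CPM, whereas no placebo or haloperidol mouse exceeded 65.0 and 93.3 CPM. Without olanzapine 3 the Egr4 difference for olanzapine minus placebo was 1.22 ± 0.60. Olanzapine 1, the highest mouse for Egr4, had the blood markers at 0 and the microglial ones at 129 CPM. The 3 direct-pathway markers averaged 4709 CPM with placebo, 2837 CPM with haloperidol and 2989.9 CPM with olanzapine, and the 4 indirect-pathway markers 6721, 6008 and 5226 CPM. The part of these markers in the members' values was not tested.

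In the class other, Fos was at 1090.0, 648, 828, 1421 and 969 CPM in placebo mice 1 to 5, 1826, 1383, 947 and 730.2 CPM in haloperidol mice 2 to 5 and 1331, 2366, 2099 and 1684 CPM in olanzapine mice 2 to 5. The olanzapine mice lay high but overlapped both groups, and haloperidol 2 was the highest of its group. Egr1 was at 366, 187, 331, 348 and 404 CPM with placebo and 951, 817, 519 and 613 CPM with olanzapine, ranges that did not overlap, and at 745, 403, 217 and 321 CPM with haloperidol. Btg2 with olanzapine (1032, 1076, 971 and 1062 CPM) also lay above its placebo values (495, 411, 681, 805 and 484 CPM) in every mouse. How many of all genes separated in this way is not given here, so nothing is read from it.

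The log2 differences for olanzapine minus placebo in the class other were 1.16 ± 0.28 for Egr1, 0.93 ± 0.25 for Fos, 0.90 ± 0.29 for Fosb, 0.87 ± 0.30 for Btg2 and 0.64 ± 0.21 for Junb. Ier2 (0.46 ± 0.27) and Nr4a1 (1.41 ± 0.63) were above 0 as well, so 7 of 7 members were, against 50.4% of 2806 genes. For haloperidol minus placebo, Nr4a1 differed by 1.84 ± 0.64, from 21.5, 18.7, 18.4, 119 and 80.7 CPM with placebo and 484, 163, 79.9 and 175 CPM with haloperidol, and the others by -0.32 to 0.47. Haloperidol minus olanzapine gave -1.22 ± 0.35 for Fosb and -0.89 ± 0.31 for Egr1.

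The make-up of the class other and heat shock genes, which handling of tissue can induce, are given beside these values. Mural-typed cells made up 40.9% ± 15.9 of the class with placebo, 43.9% ± 11.8 with haloperidol and 46.2% ± 16.02 with olanzapine. Within mural-typed cells, Fos was at 2355, 1586, 3950.0 and 2039.5 CPM in placebo mice 1, 3, 4 and 5, 2438, 1360.5 and 1542 CPM in haloperidol mice 3 to 5 and 4374, 4803 and 2673 CPM in olanzapine mice 3 to 5. The olanzapine and placebo mice overlapped here as well. The 6 members that passed there differed by 0.26 to 0.67 (log2) for olanzapine minus placebo, and the 5 in endothelial-typed cells by 0.30 to 1.08. Of 7 tested heat shock genes in the class other, 7 were above 0 in the same comparison, with a median log2 difference of 0.56 against 0.00 over all genes, and Hspa1a differed by 1.36 ± 0.38 (edgeR, adjusted p = 0.393). The part of either in the members' values was not tested.

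**Figure D3:**
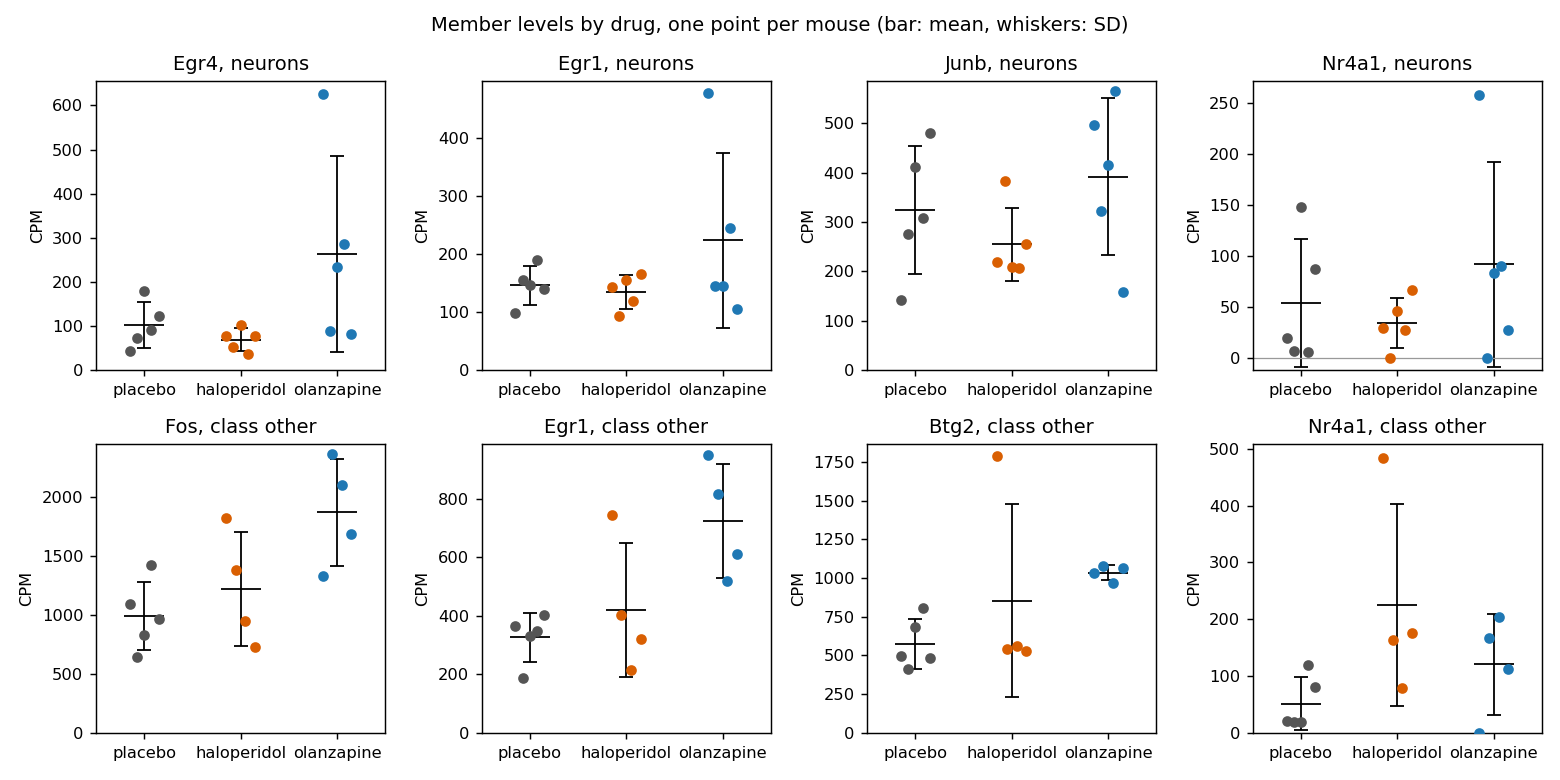
CPM (vertical axis, each panel with its own scale) of Egr4, Egr1, Junb and Nr4a1 in neurons and of Fos, Egr1, Btg2 and Nr4a1 in the class other, 1 point per mouse, with the group mean and SD. In neurons olanzapine 1 is the highest point for Egr4, Egr1 and Nr4a1, and in the class other all olanzapine points for Egr1 lie above all placebo points.

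Across all classes, edgeR's quasi-likelihood test with Benjamini-Hochberg adjustment called 0 of 35 member and class pairs for olanzapine against placebo (0% of 22172 tests over all genes), 0 of 34 for haloperidol against placebo (0.00512% of 19540) and 0 of 34 for haloperidol against olanzapine (0% of 19540). DESeq2 called 0 members in each comparison as well. In each comparison these counts include 6 pairs in neurons and 7 in the class other. The values of those pairs helped choose the members, so nothing is read from their tests. At an unadjusted p under 0.05 there were 9, 2 and 6 pairs (all tests 4.12%, 3.76% and 3.88%), but 8, 1 and 4 of them lay in neurons and the class other, whose values chose the members, so nothing is read from these counts. Outside neurons and the class other, the classes whose values chiefly guided the choice, edgeR called 0 of 22, 0 of 21 and 0 of 21 pairs. It called no other gene tested in the remaining classes. At an unadjusted p under 0.05 the counts there were 1 of 22, 1 of 21 and 2 of 21, against 2.66%, 3.91% and 4.03% of all genes in the same classes. The smallest adjusted p of a member there was 0.833 in any comparison.

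Directions in those classes were mixed. For olanzapine against placebo, 9 of 22 pairs were above 0, against 48.7% of all genes, with a median log2 difference of -0.10. For haloperidol against placebo, 6 of 21 were above 0 (all genes 49.4%; member median -0.17), and for haloperidol against olanzapine 7 of 21 (all genes 50.6%; member median -0.09). In microglia all 18 member differences lay between -0.34 and 0.18. Microglial Junb, as an example, was at 5109.8, 3314, 2465, 3425 and 3384 CPM in placebo mice 1 to 5, 3122, 3629 and 2270.3 CPM in haloperidol mice 3 to 5 and 3429, 3545, 2973, 2995 and 3596 CPM in olanzapine mice 1 to 5, overlapping ranges with placebo 1 on top.

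The smallest unadjusted p outside those classes belonged to Egr1 in the class labelled oligodendrocyte, for haloperidol against placebo. Placebo mice 1, 3, 4 and 5 were at 623, 679, 666 and 527 CPM and haloperidol mice 1, 3, 4 and 5 at 1615, 801, 856 and 708 CPM. The groups did not overlap, and haloperidol 1 stood far above the rest. The log2 difference was 0.60 ± 0.22 (edgeR, adjusted p = 0.998), and it was 0.34 without haloperidol 1. Nr4a1 in the same class was at 137, 96.8, 125 and 0 CPM with haloperidol and 178, 242 and 165 CPM in olanzapine mice 3 to 5, without overlap (log2 difference -1.02 ± 0.41, edgeR, adjusted p = 0.949). Fosb differed there by -0.60 ± 0.25 for olanzapine minus placebo (edgeR, adjusted p = 0.998), and Nr4a1 differed by 0.65 ± 0.36 in that comparison. The share of all genes whose groups did not overlap is not given here, so nothing is read from these separations.

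**Figure D4:**
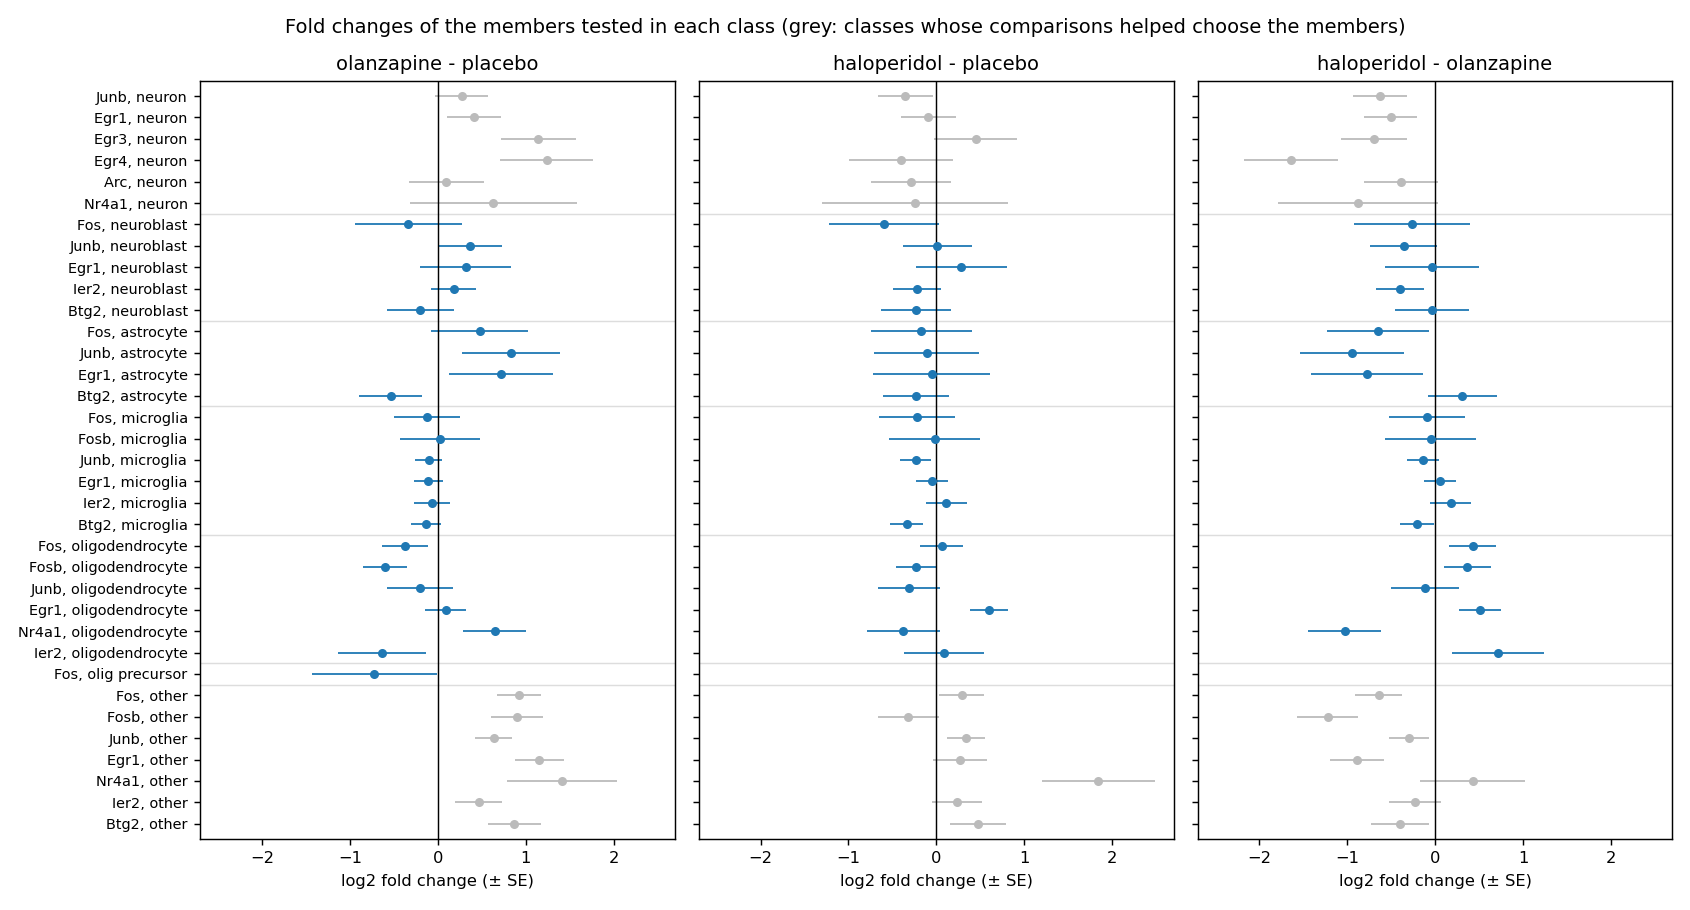
Log2 fold change ± SE (horizontal axis) of each member in each class where it was tested, for the 3 comparisons; grey marks neurons and the class other. All 6 members tested in neurons lie above 0 in the left panel and below 0 in the right panel, microglial members lie close to 0 throughout, and none was called.

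Related genes were read from lists. Of 8 other AP-1, EGR and NR4A genes in the table, 0 of 15 pairs were called for olanzapine against placebo (5 above 0, 10 below; 49.3% of all genes were above 0) and 0 of 13 for haloperidol against placebo (0 above, 13 below; 49.2% of all genes were above 0). Only 2 of these genes were tested per class, and 3 in microglia. In every list the pairs repeat genes over classes of the same mice and are not independent. Jun, the main partner of Fos in AP-1, differed by 0.61 ± 0.22 for olanzapine minus placebo in the class other (edgeR, adjusted p = 0.583). Of 25 other rapid response genes, 0 of 65 pairs were called with olanzapine (38 above 0, 27 below) and 0 of 63 with haloperidol (27 above, 36 below). Among 12 slower activity genes of neurons, 0 of 12 pairs were called in either comparison, with 7 and 6 above 0. Of these slower genes, Rgs2, a regulator of G protein signalling, stood at -0.94 ± 0.21 in microglia for haloperidol minus placebo (edgeR, adjusted p = 0.130). Of 16 upstream kinases and factors, 0 of 21 and 0 of 20 pairs were called (13 and 11 above 0), and of 9 heat shock genes 0 of 38 and 0 of 34 (27 and 10 above 0). For haloperidol against olanzapine, 4 of 34 heat shock pairs were above 0, against 50.4% of all genes, and 0 were called.

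Whether members moved together over mice was examined on log2 CPM with the mean of each treatment removed. Within a class most pairs were positive: the median Pearson r over pairs of members was 0.73 in astrocytes (15 of 15 pairs above 0, n = 15 mice), 0.61 in neuroblasts (14 of 15, n = 14), 0.55 in the class other (19 of 21, n = 13), 0.38 in microglia (20 of 21, n = 13) and 0.38 in the class labelled oligodendrocyte (18 of 21, n = 11). In neurons it was 0.23 (27 of 36, n = 15). The median r of members with all other genes of the same class was 0.13, 0.13, 0.06, 0.02, -0.01 and -0.07 in that order. These values have no test, and the points of a pair share a library, its depth and its cells. In neurons and the class other, values of these same mice also helped choose the members, so their r is a description only.

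Single pairs show what moved together. Fos and Junb had r = 0.92 in astrocytes and 0.88 in the class other, Fos and Fosb 0.83 in the class labelled oligodendrocyte, and Junb and Btg2 0.78 in microglia. In neurons, Egr4 went with Egr1 (0.78) and Nr4a1 (0.78), whereas Fos ran against Egr3 (-0.57) and Fosb (-0.41). Olanzapine 1 was the highest mouse for Egr4, Egr1 and Nr4a1 there. The neuronal median fell to 0.05 without olanzapine 5 and 0.13 without olanzapine 1, and the microglial one to 0.13 without placebo 3 and 0.15 without placebo 1. In the class labelled olig precursor the 3 pairs had a median of 0.36 (n = 9 mice), which fell to 0.05 without olanzapine 2 and 0.22 without placebo 4.

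Some other measures moved with the members as well. Each marker list, the mitochondrial share and the number of cells were compared with the members in each class, and only some values are given here. How these measures moved with all genes was not computed. In astrocytes, the summed level of 6 microglial markers (23.5 to 290.2 CPM) had a median r of 0.48 with the members, and the mouse's mitochondrial share 0.37. In the class other, the 8 mural markers (10104 to 28604 CPM summed) had 0.50 with the members, above 0 for 6 of 7, and 6 myelin markers (0 to 377 CPM) 0.52. In neuroblasts the 4 indirect-pathway markers (0 to 76.3 CPM) had 0.52 and the neuroblast markers themselves -0.40. In microglia the 6 myelin markers (29.2 to 294 CPM) had 0.43. The part of these measures in the members' correlations was not tested.

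Between classes of the same mouse, the correlation of a member with itself was about as often below 0 as above. Over 15 pairs of classes and 91 combinations of a member and a pair, r was above 0 in 49 (53.8%), with a median of 0.03 and a range of -0.63 to 0.79 over 10 to 15 mice. Over all genes, the median r of the same pairs of classes was 0.09 to 0.18, and 62.9% of gene and pair combinations were above 0. The difference between members and all genes was not tested. By permutation of mice within treatments, 0 of 91 passed Benjamini-Hochberg adjustment by Pearson's r (smallest adjusted p = 0.870; 3 at an unadjusted p under 0.05) or by Spearman's rho (0.945; 4).

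Of the members compared, Fos had r above 0 most often, in 13 of 15 pairs of classes with a median of 0.20, while Btg2 was above 0 in 5 of 15 (median -0.16). Over all genes, 62.9% of combinations were above 0. Fos is named for its count, and the pairs reuse the same classes and mice, so that count is a description. The highest single value was Fos between the class labelled oligodendrocyte and the class other (r = 0.79, permutation p = 0.0554; rho = 0.81, p = 0.0353; adjusted p = 0.870 and 0.945; 10 mice), and r was 0.82 without the 2 farthest mice. The lowest was Junb between microglia and neurons (r = -0.63, permutation p = 0.0116; rho = -0.65, p = 0.0113; adjusted p = 0.870 and 0.945; 13 mice), and it rose to -0.34 without placebo 1 and 3. Members of neurons were above 0 with microglia in 1 of 6 combinations (61.1% of all genes) and with neuroblasts in 1 of 5 (62% of all genes). Microglia with neuroblasts (6 of 6; all genes 59.1%), microglia with the class other (7 of 7; 59.2%) and astrocytes with the class labelled oligodendrocyte (6 of 6; 63.6%) were above 0 for each member compared. Without placebo 1, r was above 0 in 34 of 77 combinations, against 42 of the same 77 with it.

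Placebo 1 had the highest value of its group in 13 of 35 member and class pairs, spread over 5 classes. In that mouse 4 of 4 astrocyte, 4 of 6 microglial and 3 of 5 neuroblast members were the highest of the placebo group, but 0 of 6 in neurons, where 3 were the lowest. Fos in placebo 1 was 5845 CPM in microglia, where the other placebo mice had 1885 to 3008 CPM, and 1224 CPM in neuroblasts, where they had 129 to 318 CPM. Haloperidol 1 was highest in 12 of 21 and haloperidol 5 lowest in 16 of 34.

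**Figure D5:**
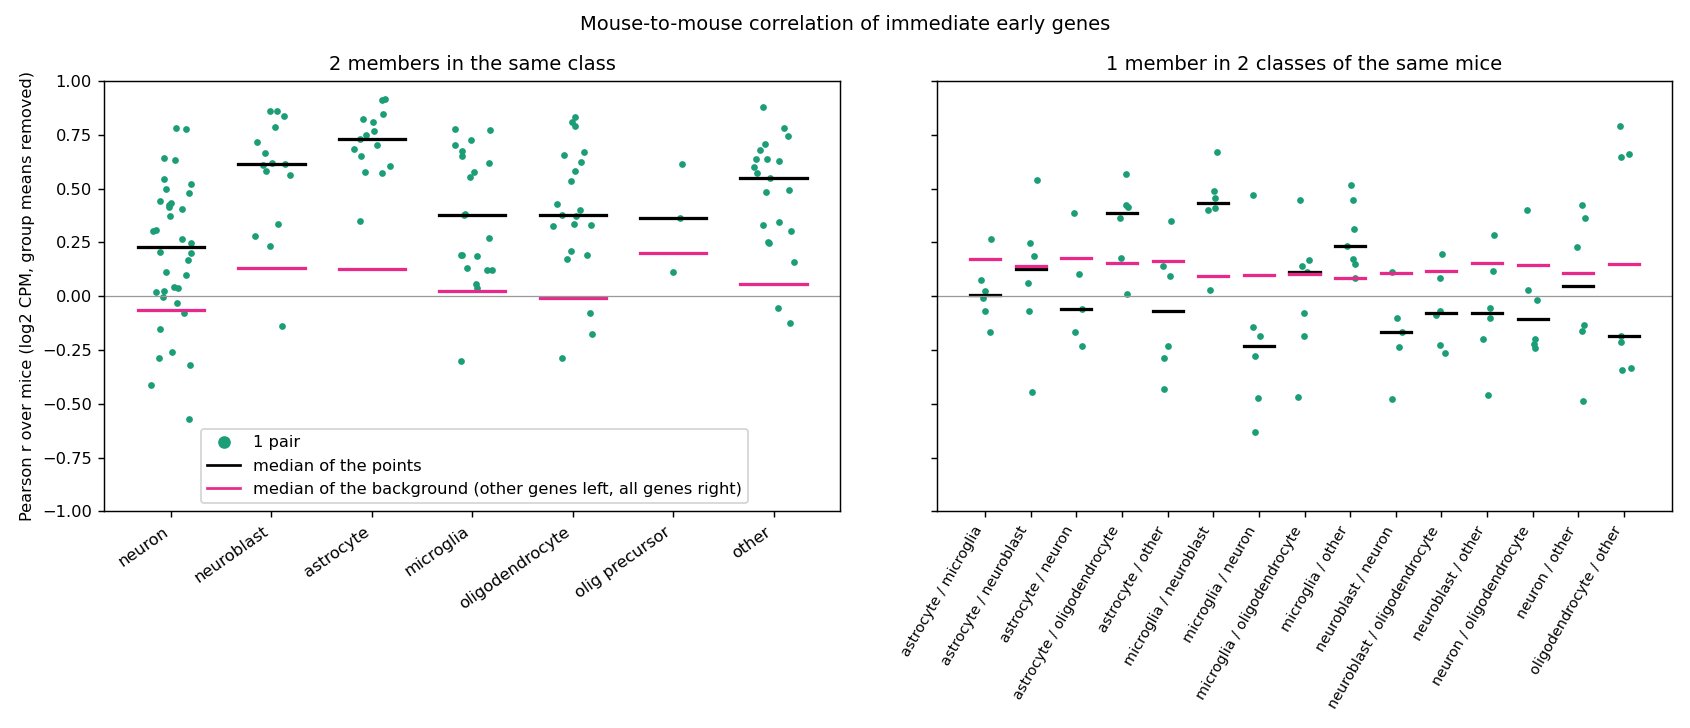
Pearson r over mice of log2 CPM with treatment means removed (vertical axis), for pairs of members within a class (left; 3 to 36 points per class) and for 1 member between a pair of classes of the same mice (right). Black bars are medians and pink bars the medians for members with other genes (left) or for all genes (right); the black bars lie above the pink ones in all 7 classes on the left, from 0.23 to 0.73, and on either side of them on the right.

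The genes outside the 10 whose level over mice was most like that of the members were named by their mean r with the members. In astrocytes (15 mice) these were Rnf215 (0.81), Stx5a (0.79), Sod3 (0.79), Dopey2 (0.79) and Jun (0.78). Neurons (15 mice) gave Trpc4ap (0.42), Dusp14 (0.41), Heatr6 (0.39), Npas4 (0.38) and Cdk7 (0.38), where Npas4 encodes an activity-dependent factor and Dusp14 a phosphatase. Microglia (13 mice) gave Spg7 (0.59), Golgb1 (0.56), Jun (0.56), Dad1 (0.54) and Esd (0.54), and the class other (13 mice) Cct4 (0.66), Wls (0.66), Klf6 (0.64), Atp5a1 (0.64) and St7l (0.64). Jun appeared in both astrocytes and microglia, and 4368 to 6168 genes were compared per class.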

How the data were processed

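Counts of unique molecular identifiers per gene and cell were deposited by the authors as 1 table with the mouse, treatment and class of every cell. The tools named per the submitters' processing notes are Seurat and Cell Ranger, with build mm10; their versions were not given in the sources used. Mice were numbered within a treatment in the order of their records. Every deposited cell already held at least 501 genes. Cells with over 20% mitochondrial UMIs (23), doublets (30, 0.538%) and 211 cells of placebo 5 that share barcodes with placebo 2 and 3 were left out of the 5581. Doublets were called per library by the Scrublet method in a deterministic version of its own (scikit-image 0.26.0 for the threshold). A threshold marking over 5% of a library was replaced by the median of the others, in 2 libraries. That version and rule were chosen after results under a packaged caller, which marked other cells from run to run, had been seen. The change moved results: olanzapine 2 then reached enough cells in the class other, and calls without the filter on low counts changed.

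Counts were summed per mouse and class (at least 10 cells) and tested with edgeR 4.0.16 (R 4.3.3; filterByExpr, TMM, robust quasi-likelihood, 3 or more mice in both groups, all treatments in 1 fit), adjusted within class and comparison over all genes tested, with DESeq2 1.42.0 as an alternative. Each mouse is a separate animal, and the labels name no batch. Correlations used log2 CPM (prior count 2), at least 3 UMIs on average and 10 mice, with 100000 permutations within treatments (scipy 1.17.1). All members passed the filter in at least 1 class: Fos, Junb and Egr1 in 6, Ier2 and Btg2 in 4, Fosb and Nr4a1 in 3 and Egr3, Egr4 and Arc in 1. Scripts were tested on simulated data. The members, gene lists, markers and tests were chosen with earlier results of these data known. Named genes are the members, the 5 genes most like them in 4 classes (mean log2 CPM of at least 5), and of the other lists the genes called or those with the smallest p.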

Additional observations from a re-analysis of the deposited data

Results flagged for a closer look

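Within groups of 4 or 5 mice with at least 10 UMIs of a member on average, 12 of 93 groups held 1 mouse far from the others (Dixon's test at the 95% level); chance does so in about 1 in 20 groups, and groups that share a mouse or a class are not independent. Placebo 1 was the far mouse for Fos in microglia (5845 CPM), Fos in neuroblasts (1224 CPM), Fosb in microglia (559.6 CPM) and Btg2 in astrocytes (106 CPM). Haloperidol 2 was the far mouse in the class other for Btg2 (1789 CPM) and Ier2 (1416 CPM) and in neurons for Junb (383 CPM). Other haloperidol mice stood apart in the class labelled oligodendrocyte for Egr1 (haloperidol 1, 1615 CPM) and Junb (haloperidol 3, 1488 CPM) and in neurons for Fos (haloperidol 4, 48.1 CPM). With olanzapine, Btg2 in microglia was high in olanzapine 5 (2013 CPM) and Ier2 in the class other was low in olanzapine 4 (564 CPM).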

How the results depend on the processing

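The count of called members stayed at 0 in each comparison with DESeq2, with DESeq2's size factor scaling (RLE) in edgeR, with doublets or shared cells kept, with at least 20 cells per mouse, with adjustment over all classes, without each mouse in turn (lowest and highest count 0) and without the 4 mice with the fewest cells (olanzapine 1 and 2 and haloperidol 1 and 2). Pairs in neurons and the class other are among these counts, and nothing is read from them. Without the filter on low counts, edgeR called 1 member for olanzapine against placebo (Egr1 in the class other, log2 difference 1.11) and 1 for haloperidol against olanzapine (Egr4 in neurons, -1.62); both are values that helped choose the members and are given as a description, and that setting also called 24 and 3 of all genes. Of 103 member differences, 18 exceeded 2 SE, and 0 of their 276 alternatives reversed; 14 of the 18 lie in neurons and the class other, where the values chose the members, so their size and sign show no stability. Among all differences, 14 of 69 changed sign without placebo 1, 14 of 103 without the 4 mice with the fewest cells and 11 of 90 with at least 20 cells. Leaving out 1 mouse moved the share of correlations between classes above 0 from 53.8% to between 44.2% and 59.7%, other settings to between 49.5% and 61.0%, and 0 passed adjustment in any of them. The medians within a class kept their sign throughout. Keeping shared cells and the settings for these medians were added after seeing the data. No paired analysis was possible because the labels give the treatments no shared replicate numbers. Low counts limit Egr3, Egr4 and Arc outside neurons and most values in the class labelled olig precursor.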
